A study of Mus musculus with 2 samples.

Results

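Conventional type-1 dendritic cells were picked out of the leukocytes of the mouse aortic adventitia by their transcripts. Members were selected on measured values, namely 1 or more UMIs (unique molecular identifiers, each marking 1 captured transcript molecule) of at least 2 of *Xcr1*, *Clec9a*, *Cadm1*, *Tlr3* and *Itgae*, with *Xcr1* or *Clec9a* among them, at most 2 UMIs of *C1qa*, *C1qb* and *C1qc* together and 0 of *Cd3d*, *Cd3e* and *Cd3g*. Cells needed 300 to 6500 detected genes and a mitochondrial share of 5% of UMIs or less, and 100 of the 4504 that passed were members. They were 11 of 306 cells at steady state (3.59%, exact Clopper-Pearson 95% interval 1.81 to 6.34%) and 89 of 4198 cells on angiotensin II (AngII), which were 2.12% (1.71 to 2.6%). No barcode was shared by the 2 libraries.

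The cells came from RankCreRosa26eYFP mice of 16 weeks in both groups, and the study asked how the macrophages of the arterial wall differ by their developmental origin and under AngII-driven inflammation. The steady-state animals had no treatment, and the other group received AngII at 1.8 µg/kg/min for 10 days from an osmotic pump. In this line, Cre recombinase made from the *Rank* (*Tnfrsf11a*) gene switches on a yellow fluorescent protein reporter that all descendants of the cell keep. The reporter transcript is called *Yfp* here. Live CD45-positive cells of 3 untreated and 2 AngII animals were pooled into 1 droplet library per condition, so condition, library and pool of animals cannot be told apart. There is thus no replicate error and no p-value in what follows. The 95% intervals reflect the counting of molecules alone. Levels are CPM, in which the UMIs of a gene, added up over the cells of a group, are divided by all UMIs of that group and multiplied by 1e+06. Ratios of CPM carry exact conditional intervals.

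Conventional type-1 dendritic cells develop from bone marrow precursors under Flt3 ligand, and depend on the transcription factors Irf8, Batf3 and Id2. They take up material from dying cells through Clec9a, which binds exposed actin filaments, sense double-stranded RNA with Tlr3 in endosomes, and follow the chemokine Xcl1 with the receptor Xcr1. They are known for cross-presentation, the loading of engulfed antigen on MHC class I for CD8+ T cells, while the type-2 subset mainly presents on MHC class II to CD4+ T cells.

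The label held for most members. *Irf8*, the remaining marker of this cell type that was not part of the selection (chromosome 8, 120736358 to 120756694 on GRCm38, GENCODE M21), was found in 10 of 11 steady-state members at 1779 CPM (1610.5 to 1961) and in 79 of 89 AngII members at 1806 CPM (1734 to 1881). The 11 steady-state members held 103 UMIs of *Xcr1* in 10 cells, 47 of *Clec9a* in 10, 74 of *Cadm1*, a cell adhesion molecule, in 11, 59 of *Tlr3* in 9 and 20 of *Itgae*, the integrin CD103, in 7. On AngII the same genes gave 432 UMIs in 83 members, 304 in 66, 210 in 52, 217 in 56 and 353 in 56. These 5 genes chose the members, so their levels are a description. Outside the members the genes were also found. An *Xcr1* or *Clec9a* UMI was present in 22 steady-state and 284 AngII cells, members included, so most AngII cells with one were not members. B cells, gated by 2 or more of *Cd79a*, *Cd79b* and *Ms4a1*, had *Xcr1* and *Clec9a* in 0 of 50 and 0 of 87 cells, which allows shares of up to 6% (3 cells of 50) and 3.45%. Macrophages, gated by 5 or more C1q UMIs, had *Xcr1* in 1 of 136 cells at steady state and in 56 of 1707 on AngII (3.28%, 2.49 to 4.24%), *Cadm1* in 5.88% and 3.87%, and *Tlr3* in 11.8% and 5.8%.

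The steady-state members formed a compact group, with 1 exception. Of the 11, 5 carried all 5 selection genes, 5 carried 4 and 1 carried 2. The last of these, with 16738 UMIs, 1 of *Clec9a* and 5 of *Cadm1*, had 0 UMIs of *Irf8* and 0 of *Wdfy4*, while the other 10 had 16 to 62 of *Irf8*. It also held all 52 UMIs of *Mgl2* and 9 of the 11 of *Cd163* in the group, genes of lectin and scavenger receptors of type-2 dendritic cells and macrophages. On AngII, 28 of 89 members carried all 5 genes, 19 carried 4, 13 carried 3 and 29 carried 2. The 29 had a median of 1053 UMIs each, and their *Irf8* level was 2152 CPM and that of *Lyz2*, a lysozyme of macrophages and monocytes, 857 CPM. Just outside the selection, 53 AngII cells with *Xcr1* or *Clec9a* as their only selection gene had 936 CPM of *Irf8* and 7315 CPM of *Lyz2*. A further 18 AngII cells were left out for 3 or 4 C1q UMIs, and had 1939 CPM of *Irf8* and 854 of *Lyz2*, against 1832 and 471 CPM in the 43 members with 1 or 2 C1q UMIs. At steady state no cell lay just outside the limits on selection genes or C1q. There, 4 cells with more than 5 C1q UMIs had 195 CPM of *Irf8*. On AngII, 30 such cells had 1051 CPM of *Irf8* and 4349 of *Lyz2*. Whatever their C1q UMIs, 4 steady-state and 16 AngII cells with 2 or more selection genes had UMIs of *Cd3d*, *Cd3e* or *Cd3g*.

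Single AngII members stood apart in the same way. One with 15594 UMIs and only 6 identity genes held 47 of the 55 *Siglech* UMIs of the group, 40 of 45 of *Ccr9*, 29 of 31 of *Ly6d* and 45 of 52 of *Ly6c2*, with 62 of *Irf8*, 1 of *Clec9a* and 0 of *Xcr1*. These are genes of plasmacytoid dendritic cells and, for *Ly6c2*, of monocytes. Another, with 6585 UMIs and 0 of *Irf8*, held 41 of 42 UMIs of *Ccr7*, the receptor that leads dendritic cells to lymph nodes, and all 6 of *Fscn1*. One with 38740 UMIs held 136 of 160 UMIs of *S100a8* and 154 of 180 of *S100a9*, which are neutrophil genes, beside 20 of *Xcr1* and 12 of *Clec9a*. One with 25894 UMIs held 268 of 302 of *Ifitm1*, and one with 29595 held 108 of 259 of *Apoe*. Whether these were droplets with 2 cells was not tested, and they were kept. Without the members that held over 50% of the UMIs of 1 of 8 such genes, the medians of the 8 gene lists recomputed kept their direction between libraries.

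The members differed in depth between libraries. At steady state they held 14009 to 37136 UMIs with a median of 18784. On AngII they held 546 to 39313 with a median of 14422, 47 of them had at least 10000, and 15 had fewer than 1000. All cells of the libraries had medians of 9105 and 1092. The share of members among cells with at least 10000 UMIs was 7.91% at steady state (4.02 to 13.7%, 11 of 139) and 7.98% on AngII (5.92 to 10.5%, 47 of 589), so the shares differed by less than their counting intervals. The libraries also differed in transcripts linked to sex, which the labels do not give. *Xist* was found in 0 of 11 steady-state members and 76 of 89 AngII members, and the Y-linked *Ddx3y*, *Eif2s3y*, *Kdm5d* or *Uty* in 11 of 11 and 0 of 89. Across all cells of the steady-state library, 25.2% had *Xist* and 61.1% a Y-linked UMI, against 60.5% and 1 cell of 4198 on AngII. Sex and AngII cannot be told apart in any difference between the members of the 2 libraries.

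**Figure D1:**
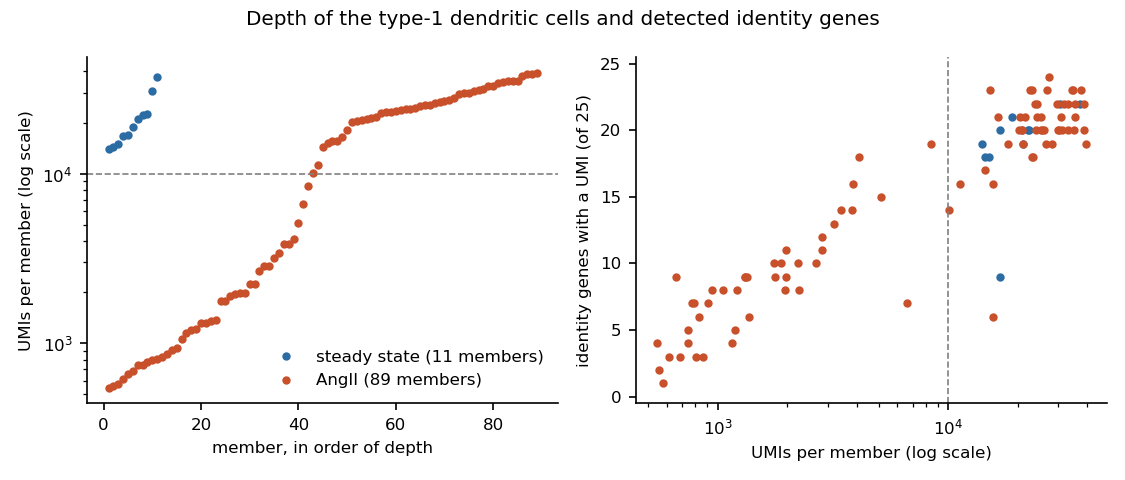
UMIs per member in order of depth (left, log scale) and the number of 25 identity genes with a UMI against depth (right), with steady-state members in blue, AngII members in orange and a dashed line at 10000 UMIs. All 11 steady-state members and 47 of 89 AngII members lie past the line, and most members past it carry 14 to 24 identity genes, apart from 1 steady-state member with 9 and 1 AngII member with 6.

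Genes known from this cell type, other than the 5 that chose the members, were then compared with 3 other groups. The *Cd209a* gate held cells with *Cd209a*, a lectin of type-2 dendritic cells, and 1 or more of *Clec10a*, *Mgl2*, *Ifitm1* and *Flt3*, with at most 2 C1q UMIs and no *Ccr7*, and counted 11 and 100 cells. It is named by its gene since it also expressed *Mrc1* and *Fn1*. Its cells had medians of 25744 UMIs at steady state and 1397 on AngII, where 37 of 100 had fewer than 1000. *Lyz2* stood at 8037 and 1504 CPM in it, so ratios to this gate do not share 1 reference across the 2 libraries. The C1q macrophage gate counted 136 and 1707 cells. The migratory dendritic cell gate, with 2 or more of *Ccr7*, *Fscn1*, *Cacnb3*, *Socs2* and *Nudt17*, counted 28 cells on AngII and 0 at steady state. Genes with at least 50 UMIs over both groups were compared, and a ratio of at least 2 or at most 0.5 is called past 2-fold.

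Of 25 identity genes, 13 could be compared with the *Cd209a* gate at steady state and 12 were at least 2-fold higher in the members, with a median log2 ratio of 2.69, where 7.11% of all 1393 genes compared were higher and 10.3% lower. On AngII, 20 of 21 were higher with a median of 3.19, beside 7.16% of 4832 genes higher and 9.77% lower. Against macrophages, 13 of 14 were higher at steady state (median 3.28), beside 6.93% of genes higher and 27% lower, and 24 of 25 on AngII (median 3.26), beside 7% higher and 22.8% lower. Against migratory dendritic cells, 18 of 22 were higher on AngII (median 3.47) and *Laptm4b* was lower at 0.274 times, beside 21.8% of genes higher and 12.1% lower. All 12 genes higher than in the *Cd209a* gate at steady state were also higher there on AngII, and likewise all 13 against macrophages. The comparison passes genes partly through their high level in the members, so these counts describe the group.

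Among the transcription factors, *Irf8* was 455-fold higher than in the *Cd209a* gate at steady state (interval 81.2 to 18013), where that gate held 1 UMI. On AngII it was 8.19-fold higher (7.01 to 9.62). The gate itself stood at 3.91 CPM of *Irf8* at steady state and 221 on AngII. *Id2*, an inhibitor of helix-loop-helix factors, was 3.98 and 5.99 times as high. *Batf3* (chromosome 1, 191097847 to 191108945), needed for the development of these cells, stood at 170.5 and 208 CPM, 0.991 times the gate at steady state (0.627 to 1.56) and 2.9 times on AngII (2.17 to 3.94). *Batf3* was thus the 1 identity gene compared with the gate at steady state that was not past 2-fold. *Zbtb46*, shared by all conventional dendritic cells, was 2.47-fold over the gate on AngII and 13.1-fold over macrophages. *Flt3*, the receptor for the growth factor of dendritic cells, was 1.75-fold over the gate, which was itself selected partly on *Flt3*, and 13.2-fold over macrophages.

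Identity genes of lysosomes, endosomes and antigen handling spanned a wide range of levels. *Cst3*, the cathepsin inhibitor cystatin C, reached 25218 CPM at steady state and 28074 on AngII, 4.81 and 8.28 times the *Cd209a* gate. *Naaa*, a lysosomal amidase, stood at 1845 and 1756 CPM and was 3.19- and 7.7-fold higher. *Ppt1*, a lysosomal enzyme that removes palmitate from proteins, was 16.8- and 9.12-fold higher. *Wdfy4*, needed for cross-presentation of cell-bound antigen, was found at 629 and 594 CPM, 6.44 and 8.75 times the gate. In cells with at least 10000 UMIs, *Wdfy4* ranged from 0 to 1176 CPM with a median of 539 at steady state and from 0 to 1255 CPM with a median of 577 on AngII, so the libraries overlapped. *Rab7b*, a GTPase of late endosomes, was 11.1- and 29.5-fold above the gate. *Tlr11*, a receptor for microbial profilin, was 43.2-fold above it on AngII and 18-fold above macrophages. *Cd207* (langerin) was absent from steady-state members, and 31 of its 33 UMIs on AngII lay in 1 member.

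The 15 genes with the highest ratio to the *Cd209a* gate in the weaker of the 2 libraries were named by rule, whether or not a list held them. Many were also identity genes, so this set is not independent of that list. They were *Gpr141b*, *Cd36*, *Ifi205*, *Rab7b*, *Sept3*, *Ppt1*, *Irf8*, *Trim35*, *Wdfy4*, *Ifi211*, *Havcr2*, *Txndc15*, *Rtl8b*, *Rtl8a* and *Cst3*. *Gpr141b*, an orphan receptor, was 31.9-fold higher at steady state (8.42 to 269) and at least 24.4-fold higher on AngII, where the gate held 0 UMIs and 3 UMIs were set in their place. *Cd36*, a scavenger receptor for lipids and dying cells, had 70 UMIs against 0 at steady state, at least 26.1-fold higher, and was 16.5-fold higher on AngII. *Ifi205* and *Ifi211*, members of a family of interferon-inducible DNA-binding proteins, were 88.3- and 27.4-fold higher at steady state and 15.8- and 5.96-fold on AngII. *Havcr2*, the inhibitory receptor TIM-3, had 54 UMIs against 0 and was 5.81-fold higher on AngII. *Trim35*, *Txndc15*, *Rtl8b* and *Rtl8a* were 4.87- to 12.1-fold higher at steady state and 5.07- to 11.3-fold on AngII.

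**Figure D2:**
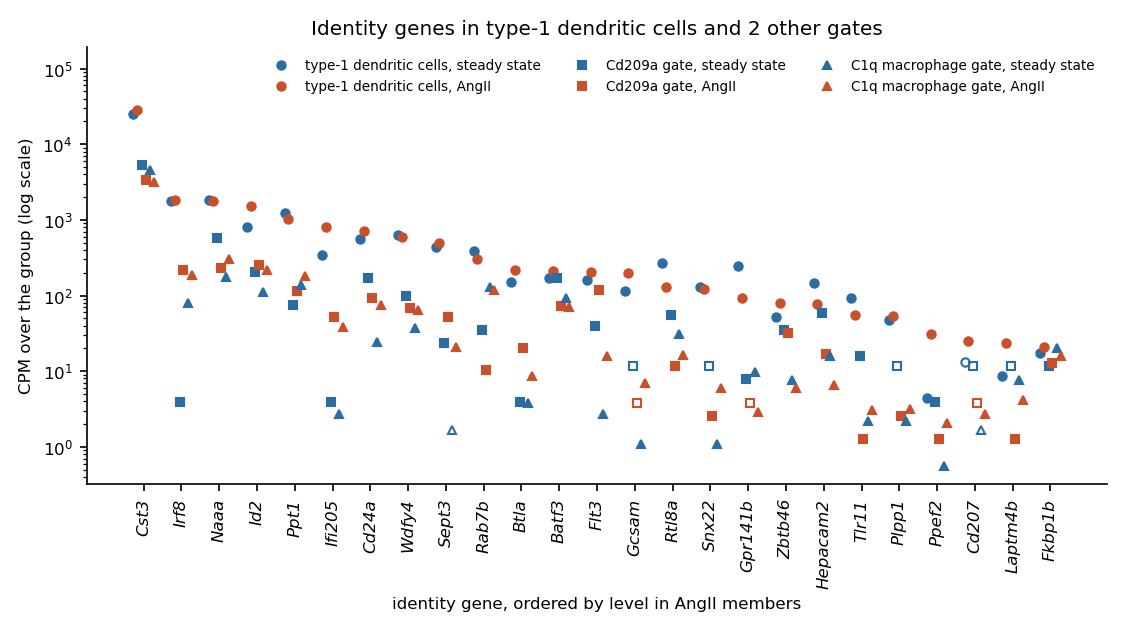
CPM over the group (log scale) of the 25 identity genes in type-1 dendritic cells (circles), the Cd209a gate (squares) and the C1q macrophage gate (triangles), at steady state in blue and on AngII in orange, with open symbols for genes at 0 UMIs drawn at the limit that 3 UMIs give. Cst3 lies at 25218 and 28074 CPM and Irf8 at 1779 and 1806 CPM, and the circles lie above the squares and triangles for most genes, with Batf3 at steady state among the exceptions.

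Of the most selective genes, *Gpr141b* and *Ifi205* share a feature of their upstream sequence. Both are shown since they carry the interferon element (GAAA, any 2 bases, GAAA), searched on both strands of 300 bases around the start of each gene (RefSeq, GRCm38.p6), which 3.44% of all 32851 windows hold. Of the 20 identity genes with a window, 3 carried it, *Ifi205*, *Gpr141b* and *Tlr11*. The 250 bases before the start are printed 5′ to 3′ on the strand of the gene, for *Ifi205* at chr1:174031756-174032005, minus strand, and for *Gpr141b* at chr13:19732952-19733201, minus strand, with the element in capitals.
Ifi205: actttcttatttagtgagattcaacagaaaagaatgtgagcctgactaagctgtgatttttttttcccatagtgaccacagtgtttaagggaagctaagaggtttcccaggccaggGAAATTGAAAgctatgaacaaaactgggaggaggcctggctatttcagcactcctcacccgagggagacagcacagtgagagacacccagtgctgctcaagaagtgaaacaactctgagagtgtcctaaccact
Gpr141b: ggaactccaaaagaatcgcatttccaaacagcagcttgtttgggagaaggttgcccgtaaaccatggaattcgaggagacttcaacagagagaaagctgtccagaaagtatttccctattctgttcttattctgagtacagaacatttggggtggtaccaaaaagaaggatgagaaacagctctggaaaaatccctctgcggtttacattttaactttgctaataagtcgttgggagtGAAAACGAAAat
Between libraries the genes went opposite ways, as given below. A match of letters is a description and no sign that a factor binds there.

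Several factors that mark other subsets were lower. Of 15 such genes, 2 of the 6 compared with the *Cd209a* gate at steady state and 7 of 12 on AngII were at least 2-fold lower, with none higher in either library. Of all genes compared with that gate, 10.3% were lower at steady state and 9.77% on AngII. *Zeb2*, a repressor that favours type-2 and plasmacytoid cells, had 6 and 26 UMIs in the members, 0.0381 and 0.048 times the gate. *Maf*, which directs macrophage identity, was at 0 UMIs at steady state and at 3 on AngII, 0.00347 times the macrophage level (0.000716 to 0.0102). *Irf4*, the counterpart of *Irf8* in type-2 and migratory cells, had 4 UMIs in 1 steady-state member and 3 on AngII. *Spi1* (PU.1), shared by all myeloid cells, was 1.09 and 0.762 times the gate. Of 14 macrophage markers, 8 were at 0 UMIs in the steady-state members, among them *Lyve1*, *Folr2*, *Csf1r*, *Fcgr1* and *Mertk*, and 1 (*Mertk*) on AngII. All 14 were lower than in macrophages in both libraries, beside 27% of all genes at steady state and 22.8% on AngII.

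The machinery that cuts and loads peptides for MHC class I was enriched in part. Of the 20 genes of this list, 5 of 15 compared at steady state and 8 of 19 on AngII were at least 2-fold above the *Cd209a* gate, and 1 was lower in each. The same 5, *Tap1*, *Tap2*, *Psmb8*, *Psmb9* and *Psme1*, were higher in both libraries. Of all genes compared with the gate, 7.11% were higher and 10.3% lower at steady state, and 7.16% and 9.77% on AngII. *Tap1* and *Tap2*, which pair to form the peptide transporter, were 7.41- and 3.35-fold higher at steady state (3.5 to 18 and 1.75 to 6.85) and 2.84- and 2.63-fold on AngII. *Psmb8* and *Psmb9*, subunits of the immunoproteasome, were 2.91- and 3.46-fold higher at steady state and 2.58- and 3.83-fold on AngII. *Psme1*, part of the proteasome activator PA28, was 2.61- and 2.73-fold higher. The class I chains themselves were not. *H2-K1* was 0.704 and 0.651 times the gate, *H2-D1* 0.798 and 0.805, and *B2m* 0.901 and 0.823. *Rab43*, a GTPase with a role in cross-presentation, was 2.77-fold higher on AngII, with too few UMIs at steady state. *Cybb*, the oxidase subunit gp91phox, was the gene that was lower, at 0.0894 and 0.0643 times the gate.

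*Tap1* (chromosome 17, 34187553 to 34197225, plus strand) and *Psmb9* (chromosome 17, 34181987 to 34187764, minus strand) are divergent neighbours in the MHC region on GRCm38 whose annotated bodies overlap at their starts, away from the 3′ ends that this assay counts, and their 300-base promoter windows overlap by 275 bases. The 250 bases before the start of *Tap1* (RefSeq, GRCm38.p6, chr17:34187306-34187555, plus strand) are therefore shown as the stretch that both genes share. Capitals mark a CCAAT box (CCAAT on either strand, held by 37.4% of all windows) at position 29 and a GC box (GGGCGG, here on the other strand, held by 35.7%) at position 75.
Tap1: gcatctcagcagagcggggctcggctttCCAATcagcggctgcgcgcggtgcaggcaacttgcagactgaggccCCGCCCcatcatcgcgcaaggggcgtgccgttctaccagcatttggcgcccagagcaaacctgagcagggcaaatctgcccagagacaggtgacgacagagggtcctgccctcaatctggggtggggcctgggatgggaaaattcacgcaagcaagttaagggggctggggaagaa
On AngII against steady state *Psmb9* was 2.14 times as high (1.74 to 2.67) and *Tap1* 1.4 times (1.05 to 1.9).

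MHC class II transcripts were as abundant as in the *Cd209a* gate. *Cd74*, the invariant chain, stood at 24283 CPM at steady state and 24155 on AngII, *H2-Ab1* at 11208 and 10931, and *H2-Aa* at 10172 and 11078. Against the gate, *Cd74*, *H2-Aa*, *H2-Ab1* and *H2-Eb1* had ratios of 0.986 to 1.16 at steady state and 0.849 to 0.956 on AngII. Of all genes compared with the gate, 7.11% were higher and 10.3% lower at steady state, and 7.16% and 9.77% on AngII. Of the 12 genes of the list, 1 of 11 was higher and 2 lower at steady state, and 0 of 12 higher and 3 lower on AngII. *H2-Ob*, a subunit of the H2-O inhibitor of peptide exchange, was the one higher at 3.75-fold (2.03 to 7.38), and 1.86-fold on AngII. *Ifi30*, a lysosomal thiol reductase, was lower in both at 0.442 and 0.424 times. Macrophages had less. Of the list, 9 of 11 genes at steady state and 6 of 12 on AngII were at least 2-fold above macrophages, led by *H2-Ob* at 12.9- and 13-fold. Of all genes compared with macrophages, 6.93% were higher at steady state and 7% on AngII.

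Sensors of microbes other than those used for the selection were few. *Tlr2*, *Tlr4* and *Tlr7*, which recognise bacterial lipids and single-stranded RNA, had 2, 1 and 0 UMIs in the steady-state members and 9, 7 and 6 on AngII, where they stood at 0.0637, 0.133 and 0.0998 times the macrophage level. *Clec7a* and *Clec4n*, the Dectin lectins for fungal sugars, were at 0.0343 and 0.0323 times macrophages. *Unc93b1*, which carries endosomal Toll-like receptors to their place, stood at 262 and 391 CPM, 0.771 and 1.19 times the *Cd209a* gate. *Clec12a*, an inhibitory lectin for uric acid crystals, was 3.54- and 1.81-fold above the gate. Against macrophages, 7 of 9 pattern receptors were lower at steady state and 7 of 12 on AngII, beside 27% and 22.8% of all genes.

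Of 10 growth factor receptors, 1 of 6 compared with macrophages was higher and 2 lower at steady state, and 2 of 9 higher and 4 lower on AngII, against 27% of all genes lower at steady state and 22.8% on AngII. Of 10 chemokine receptors, 0 of 5 were higher and 4 lower at steady state, and 3 of 8 higher and 5 lower on AngII. Of all genes, 6.93% were higher than in macrophages at steady state and 7% on AngII. *Csf1r*, the receptor that macrophages depend on, was at 0 UMIs at steady state and at 18 on AngII, 0.0191 times macrophages. *Csf2ra*, for GM-CSF, stood at 219 and 182 CPM, 0.635 and 0.808 times the *Cd209a* gate, and *Kit* at 65.6 and 83.8 CPM, 20-fold over macrophages on AngII. *Tnfrsf11a*, the gene that drives Cre in this line, had 7 UMIs in 5 of 11 members (30.6 CPM, 12.3 to 63) and 11 in 10 of 89 (8.46 CPM, 4.22 to 15.1). *Ccr2*, which draws cells from blood, was below the gate at 0.391 and 0.401 times. *Cxcr3*, the receptor for Cxcl9 and Cxcl10, was 11.8-fold above the gate and 18.5-fold above macrophages on AngII. *Itgb7*, the integrin partner of *Itgae*, was 25.8- and 7.39-fold above macrophages, while *Itgam* (CD11b) was 0.197 and 0.0417 times their level.

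Maturation genes were lower in AngII members than in migratory dendritic cells. All 15 genes of that list were below the gate, by a median log2 ratio of -5.30, and 5 of the 15 had defined the migratory gate. Of the others, *Ccl22*, a chemokine for regulatory T cells, was at 0.00374 times, *Relb* at 0.033 and *Cd63* at 0.0117. Costimulatory genes were lower as well, 9 of 10, among them *Cd40* at 0.0514, *Cd80* at 0.0209 and *Cd274* (PD-L1) at 0.0547 times, with *Havcr2* the one higher at 7.39-fold. Of all genes compared with the migratory gate, 21.8% were higher and 12.1% lower. A UMI of *Ccr7* or *Fscn1* was found in 1 of 11 members at steady state (9.09%, 0.23 to 41.3%) and in 2 of 89 on AngII (2.25%, 0.273 to 7.88%). Of the cytokines, *Il12b*, which drives interferon production by T cells, had 2 UMIs in 1 steady-state member and 5 in 1 AngII member, the same one that held *Ccr7*. *Il27*, *Il23a* and *Il10* were at 0 in all 100 members.

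The reporter was nearly absent. *Yfp* had 1 UMI in 1 of 11 steady-state members (9.09%, 0.23 to 41.3%) and 1 UMI in 1 of 89 AngII members (1.12%, 0.0284 to 6.1%). The steady-state UMI lay in the member without *Irf8* and with 52 UMIs of *Mgl2*, so that 0 of the other 10 had one. Among AngII members with at least 10000 UMIs it was 0 of 47, which allows a share of up to 6.38%. Macrophages with at least 10000 UMIs had *Yfp* in 93.4% of 76 cells at steady state (85.3 to 97.8%) and 42.5% of 306 on AngII (36.9 to 48.2%). The *Cd209a* gate had 0 of 11 and 2 of 38, and B cells, with median depths of 5582 and 4154 UMIs, 0 of 50 and 1 of 87. The difference from macrophages exceeded the counting intervals in both libraries. The share in AngII members was no higher than in B cells of that library.

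Between the libraries, most genes of the members stayed within 2-fold. Of 3804 genes with at least 50 UMIs over both, 10.1% were at least 2-fold higher on AngII and 5.23% at least 2-fold lower, and the median log2 ratio was 0.10. Genes at or near 0 UMIs in 1 library pass the minimum of 50 only through the other, so list counts here are descriptions. Most identity genes stayed within 2-fold, with 1 of 21 higher, 2 lower and 18 within 2-fold (median log2 ratio 0.14). *Irf8* was 1.02 times the steady-state level (0.913 to 1.13), *Naaa* 0.952 times, *Wdfy4* 0.944 (0.789 to 1.14) and *Batf3* 1.22 (0.871 to 1.76). The gene that was higher was *Ifi205* at 2.34-fold (1.86 to 2.99). Between the same libraries it was 13.1-fold higher in the *Cd209a* gate, with 40 UMIs against 1, and 13.8-fold in macrophages, with 345 against 5. In members with at least 10000 UMIs it ranged from 0 to 716 CPM with a median of 285 at steady state and from 0 to 2394 CPM with a median of 791 on AngII, with overlap. Lower were *Gpr141b* at 0.376 times (0.273 to 0.525) and *Rtl8a* at 0.487 (0.362 to 0.664). Of the selection genes, *Itgae* was 3.1 times as high (1.98 to 5.14) and *Cadm1* 0.499 times (0.381 to 0.66), as a description, since they chose the members.

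**Figure D3:**
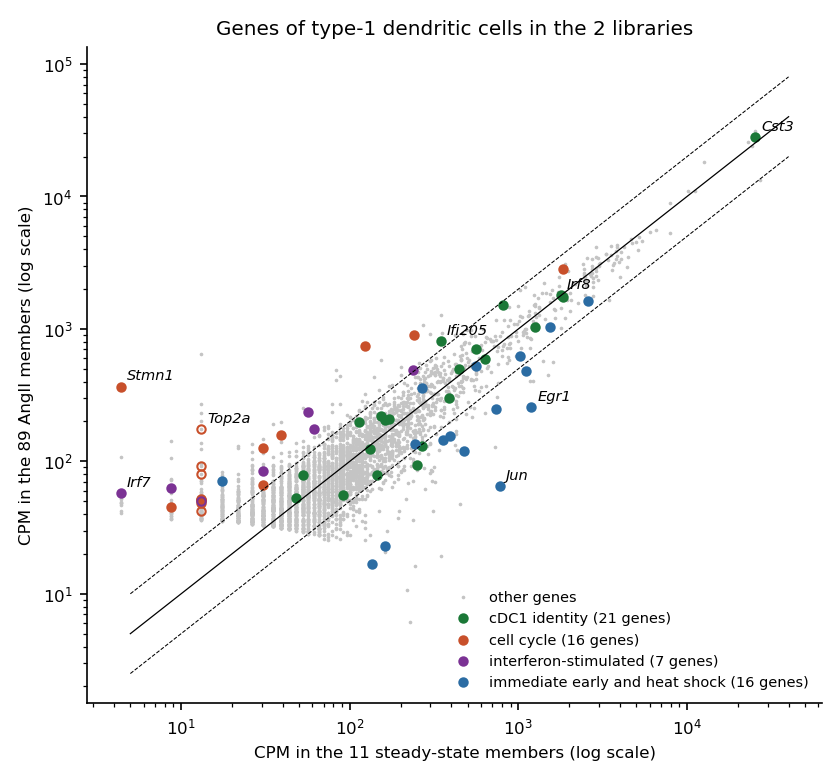
CPM of genes with at least 50 UMIs in the 11 steady-state members (x axis, log scale) and the 89 AngII members (y axis, log scale), with genes of 4 lists in colour, open symbols for genes at 0 UMIs at steady state drawn at the limit that 3 UMIs give, a solid line at equal levels and dashed lines at 2-fold. Identity genes such as Irf8 and Cst3 lie along the solid line, 15 of 16 cell cycle genes lie above the upper dashed line, and Jun and Egr1 lie below the lower one.

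Cell cycle genes were the list with the most genes past 2-fold. Of 18, 16 could be compared and 15 were higher in AngII members, with a median log2 ratio of 2.0, the exception being the histone *H2az1* at 1.55-fold. Over all genes compared in the members, 10.1% were higher. For 7 of the 16, the steady-state members held 0 UMIs. *Top2a*, the topoisomerase of dividing cells, had 229 UMIs in 13 AngII members against 0, at least 13.4-fold higher. *Stmn1*, a regulator of microtubules, had 476 UMIs in 25 members against 1 UMI in 1 member, 83.7-fold (15 to 3314). *Mki67* had 165 UMIs against 7 (4.15-fold, 1.97 to 10.5), *Tubb5*, a tubulin, was 6.04-fold higher (4.15 to 9.13), *Hmgb2* 3.73-fold (2.85 to 4.98) and *Pcna*, the clamp of DNA replication, 3.99-fold (2.06 to 8.84). *Rrm2* and *Tyms*, which supply nucleotides, had 119 and 63 UMIs against 0. Without the 13 members defined in the next paragraph, the median log2 ratio of the list was 0.31 and *Hmgb2* lay at -0.91. It was 0.77 without members holding UMIs of 7 genes of other cell types, and 0.16 with each cell thinned to 2000 UMIs before the selection.

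These transcripts lay in a minority of the members. At least 3 of 11 genes of mitosis and replication, a definition chosen after the data were seen, were present in 13 of 89 AngII members (14.6%, 8.01 to 23.7%) and in 0 of 11 at steady state, which, at 3 cells of 11, allows up to 27.3%. All 13 had 23781 UMIs or more, and among members with at least 10000 UMIs they were 13 of 47 (27.7%, 15.6 to 42.6%). This interval begins below the limit that 0 of 11 allows, so with 11 cells a difference was not detectable. With each cell thinned to 2000 UMIs, 8 of 60 and 0 of 11 remained. Other AngII cells of at least 10000 UMIs met the definition in 1 of 38 cells of the *Cd209a* gate (2.63%, 0.0666 to 13.8%), 27 of 306 macrophages (8.82%, 5.9 to 12.6%) and 1 of 18 migratory cells. The interval of the members overlaps that of the migratory cells (5.56%, 0.141 to 27.3%). It lies above those of the *Cd209a* gate and of macrophages on AngII, but these intervals count cells of 1 pooled library. Cells are not replicates and depth past 10000 UMIs was not matched, so a difference between cell types was not tested. At steady state 2 of 11 cells of the *Cd209a* gate and 5 of 76 such macrophages met the definition. Between libraries the list went the other way in these gates, with 0 of 8 genes higher and 4 lower in the *Cd209a* gate (median log2 ratio -0.99) and 0 of 18 higher and 6 lower in macrophages (-0.57). Over all genes compared between libraries, 9.38% were higher and 5.65% lower in the *Cd209a* gate (3007 genes), 6.85% and 6.35% in macrophages (9804 genes), and 3.98% and 2.58% in B cells (2012 genes).

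Immediate early and heat shock genes were lower on AngII. Of 17, 16 could be compared, 9 were at least 2-fold lower and 1, *Ier3*, was higher at 4.05-fold, with a median log2 ratio of -1.25. Over all genes compared in the members, 5.23% were lower and 10.1% higher. *Jun*, a subunit of the AP-1 factor, had 177 UMIs in 7 of 11 steady-state members against 85 in 29 of 89, 0.0845 times the level (0.0644 to 0.11). *Egr1* was at 0.215 times (0.183 to 0.253), *Atf3* at 0.252 (0.196 to 0.325), *Ier2* at 0.339 (0.281 to 0.411) and *Nr4a1* at 0.393 (0.305 to 0.509). With thinned cells, where 6 and 37 members were left, the median was -0.11. *Fos* stayed within 2-fold at 0.633 (0.578 to 0.695). The inducible chaperones *Hspa1a* and *Hspa1b* were at 0.125 and 0.143 times, with 31 and 37 UMIs in 3 and 2 steady-state members only. Summed over the list, steady-state members ranged from 905 to 20552 CPM with a median of 11983 and AngII members with at least 10000 UMIs from 641 to 13116 CPM with a median of 5286. Of the 11, 8 lay above the AngII median and 3 below 2000 CPM, so the groups overlap. In macrophages 7 of 17 genes were lower (median -0.81), while in the *Cd209a* gate 0 of 14 and in B cells 0 of 11 were lower (medians 0.17 and 0.25), where 6.35%, 5.65% and 2.58% of all genes were lower. *Jun* was 1.51 and 0.796 times as high in those gates and 0.257 in macrophages.

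Interferon-stimulated genes were higher on AngII. Of 16, the 7 that could be compared in the members were all at least 2-fold higher, with a median log2 ratio of 1.93. Over all genes compared in the members, 10.1% were higher. *Irf7*, a factor that amplifies interferon production, had 75 UMIs in 26 members against 1 (13.2-fold, 2.3 to 528). *Isg15*, a ubiquitin-like modifier, had 65 UMIs against 0, at least 3.81-fold higher. *Zbp1*, a sensor of Z-form nucleic acid, was 7.21-fold higher (1.93 to 60.5), *Bst2* (tetherin) 4.13-fold (2.38 to 7.84), *Ifi27l2a* 2.86-fold and *Ly6e* 2.07-fold. The other 9, among them *Ifit1*, *Ifit3* and *Cmpk2*, had too few UMIs. Levels stayed below those of macrophages, with 11 of 16 genes at least 2-fold lower in the members on AngII and none higher. Of all genes compared with macrophages on AngII, 22.8% were lower. The *Cd209a* gate had 4 of 5 genes higher (median 2.91), B cells 4 of 5 (2.05) and macrophages 6 of 16 (0.87), where 9.38%, 3.98% and 6.85% of all genes were higher. Without a limit on C1q UMIs in the selection, the median of the members was 0.82.

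Most MHC class I genes stayed within 2-fold. Of 20, 17 could be compared, 3 were at least 2-fold higher, 1 lower and 13 within 2-fold, with a median log2 ratio of 0.53. Over all genes compared in the members, 10.1% were higher and 5.23% lower. *H2-K1* was 2.13-fold higher (1.73 to 2.64), *Psmb9* 2.14-fold and *Psme2*, the partner of *Psme1* in PA28, 2.14-fold (1.64 to 2.84). *Erap1*, which trims peptides in the endoplasmic reticulum, was at 0.444 times (0.256 to 0.80). *B2m* was 1.66 times (1.44 to 1.93) and *Psmb8* 1.48 times (1.29 to 1.71). Summed over the list, the 11 steady-state members ranged from 5156 to 8469 CPM with a median of 7240.2, and the 47 AngII members with at least 10000 UMIs from 6713 to 20008 CPM with a median of 10319. The AngII median lay above the highest steady-state member, and the lower AngII members overlapped with them. The same list had median log2 ratios of 0.42 in the *Cd209a* gate, 0.51 in macrophages and 0.32 in B cells. MHC class II genes stayed within 2-fold in 11 of 12 cases (median 0.06), with *Cd74* at 0.995 (0.967 to 1.02) and *H2-Ab1* at 0.975 (0.935 to 1.02). The exception was *Ifi30* at 3.67-fold (2.93 to 4.66). It was 3.82-fold higher in the *Cd209a* gate, 3.42-fold in macrophages and 1.13-fold in B cells. In members of at least 10000 UMIs it ranged from 119 to 896 CPM with a median of 286 at steady state and from 150.1 to 4712 CPM with a median of 1069 on AngII.

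**Figure D4:**
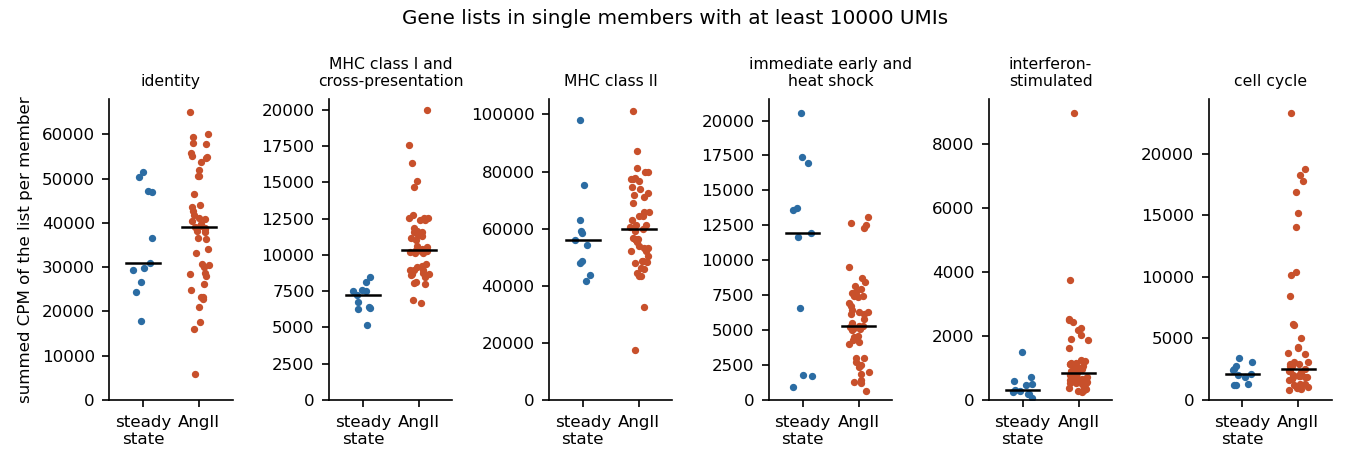
Summed CPM of 6 gene lists in each member with at least 10000 UMIs, for 11 steady-state members (blue) and 47 AngII members (orange), with horizontal bars at the medians and a separate scale from 0 for each list. Cell cycle totals reach 23343 CPM on AngII against 3425 at steady state, class I totals are shifted upward and immediate early totals downward on AngII with overlap, and class II totals have similar medians.

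Costimulatory and inflammatory genes went different ways. At steady state all 4 costimulatory and checkpoint genes compared were at least 2-fold above the *Cd209a* gate, beside 7.11% of all genes. Of these, *Havcr2* had 54 UMIs against 0 and *Icam1* 44 against 11, so both reached the minimum mainly through the members. On AngII 1 of 7 was higher and 2 lower, beside 7.16% and 9.77% of all genes. Between libraries, of 14 costimulatory and checkpoint genes, 4 could be compared and all lay lower, 2 past 2-fold, beside 5.23% of all genes. *Icam1*, an adhesion ligand for T cells, was at 0.196 times (0.128 to 0.301), *Cd83* at 0.415 (0.318 to 0.545), *Cd86* at 0.544 (0.397 to 0.757) and *Havcr2* at 0.505 (0.368 to 0.702). *Tnf* had 28 UMIs in 4 steady-state members and 1 on AngII, too few to compare under the limit of 50. *Cd44* was at 0.372 times (0.29 to 0.481), *Rbpj*, the factor of Notch signalling and 1 of 4 lower among 9 factors of other subsets compared, at 0.365 (0.299 to 0.448) and *Lyz2* at 0.347 (0.306 to 0.394). *Klf4* was at 0.234 times, but 39 of its 70 steady-state UMIs lay in the member without *Irf8*, and without the members that stood apart its log2 ratio was -1.03 in place of -2.10. *Ccl4*, a chemokine for T cells and monocytes, had 350 UMIs in 22 AngII members against 0 at steady state, at least 20.5-fold higher, with 112 and 105 of them in 2 members. *Ccl5* had 63 in 8 members against 0, with 34 in 1 member. *Cxcl9* had 80 UMIs against 2 (7.04-fold, 1.89 to 59.1), but 57 of them lay in 1 member, and without members holding UMIs of 7 genes of other cell types its log2 ratio was -0.11. *Il1b* was 1.87 times as high (1.43 to 2.5), within 2-fold. *Cebpb*, a factor of inflammatory myeloid cells, had 185 UMIs in 47 members against 2 in 1 member (16.3-fold, 4.44 to 135). With all deposited barcodes in place of the filtered ones, its log2 ratio was 0.08 in place of 4.02. Between the same libraries, *Cebpb* was 0.627 times as high in the *Cd209a* gate, 1.22 in macrophages and 5.24 in B cells. In these gates *Ccl4* was 9.25, 1.23 and at least 10.4 times as high, and *Il1b* 6.74, 4.05 and 42.1 times. The genes lower in the members went different ways there. *Cd83* was 1.14 and 0.474 times as high in the *Cd209a* gate and macrophages, *Cd86* 1.68 and 0.472, and *Icam1* 1.25 and 1.16. *Havcr2* was at least 1.75 times as high in the gate and 5.59 times in macrophages. *Cd44* was at 0.534 and 2.05 times, *Rbpj* at 0.225 and 0.688, *Lyz2* at 0.187 and 0.967 and *Klf4* at 1.42 and 0.297. In the members *Cxcr3* was 2.02 times as high (1.12 to 4.01) with *Ccr2* at 0.605 (0.499 to 0.737).

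The 10 highest ratios of AngII to steady state without a single dominant member belonged to *Stmn1*, *Xist*, *Cks1b*, *Ccl4*, *Cebpb*, *Pclaf*, *Plet1*, *Top2a*, *Irf7* and *Acot7*. *Cks1b*, a partner of cyclin-dependent kinases, had 140 UMIs against 1, and *Pclaf*, which binds Pcna, 261 against 0. *Plet1*, a surface protein of epithelial progenitors and some dendritic cells, had 78 UMIs in 11 members against 1 (13.7-fold, 2.39 to 549), and *Acot7*, an acyl-CoA thioesterase, 72 in 37 against 1. The 10 lowest included *Clec4b1*, *Dusp2*, *Gadd45b*, *Jun*, *Ppp1r15a*, *Nfkbia*, *Icam1*, *Plec* and *4930523C07Rik*. *Clec4b1*, a lectin of myeloid cells, had 50 UMIs in 8 of 11 steady-state members and 14 in 9 of 89 AngII members (0.0492 times, 0.0251 to 0.0905). *Nfkbia*, the inhibitor that NF-κB induces, was at 0.175 times (0.14 to 0.218), and the stress-induced *Gadd45b* and *Ppp1r15a* at 0.066 and 0.153.

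**Figure D5:**
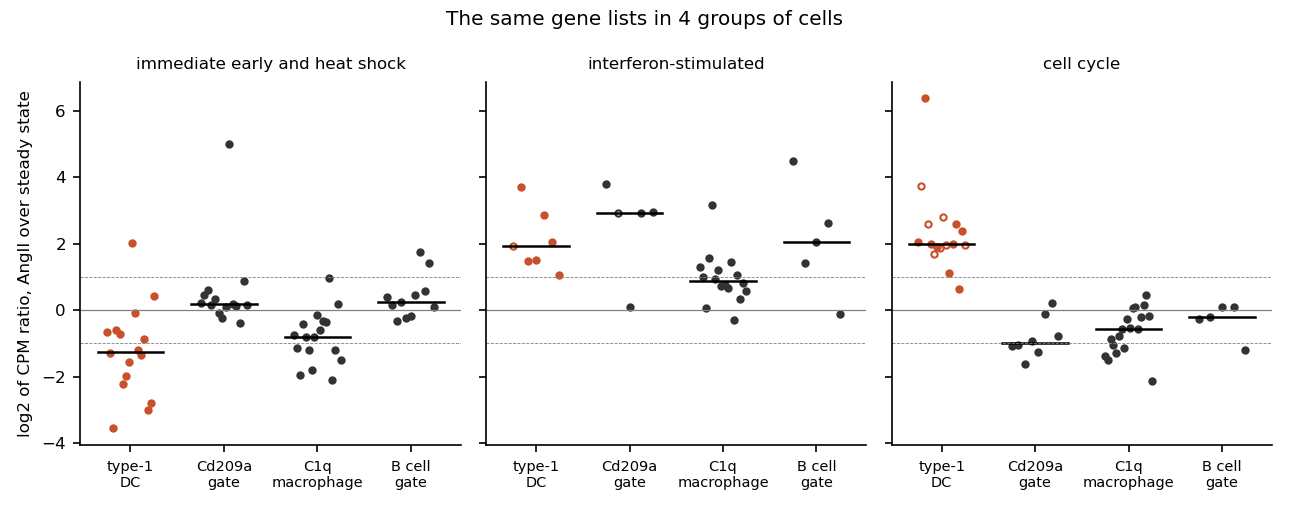
Log2 ratio of CPM on AngII over steady state for the genes of 3 lists with at least 50 UMIs in that group, in type-1 dendritic cells (orange) and 3 other gates (dark grey), with a bar at each median, open symbols for ratios set by 3 UMIs in place of 0 and dashed lines at 2-fold. The medians for type-1 dendritic cells are -1.25 for immediate early, 1.93 for interferon-stimulated and 2.0 for cell cycle genes, and cell cycle medians lie below 0 in the other 3 groups.

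Markers of other cell types were measured beside these differences. In steady-state members, all 6 mast cell markers, 8 of 9 T and NK cell markers, 6 of 7 neutrophil markers and 8 of 9 stromal markers were at 0 UMIs. Macrophage markers summed to 785 to 3107 CPM per member, carried by *Lyz2*, against 0 to 6994 CPM in AngII members of at least 10000 UMIs, with medians of 2011 and 433. Monocyte markers had medians of 602 and 609 CPM in those groups, with ranges of 69.6 to 1492 and 0 to 9619, and neutrophil markers medians of 0 in both, with highest values of 89.4 and 7925. In AngII members, the 15 with fewer than 1000 UMIs had 2267 CPM of *Lyz2* and 1451 of *Apoe*, against 532 and 166 in the 47 with at least 10000, while *Irf8* was 1179 against 1814 CPM. With members of at least 10000 UMIs only, the list medians of AngII against steady state were 2.07 for cell cycle, -1.30 for immediate early, 1.70 for interferon-stimulated and 0.52 for class I genes.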

How the data were processed

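Single-cell libraries were prepared with the 10x Genomics 3′ chemistry. UMI counts per gene and barcode were deposited by the authors as filtered matrices of 55386 features with 346 and 4419 barcodes, made with Cell Ranger 3.1.0 on GRCm38.p6 with the reporter added, per the labels and the methods of the study. The deposited counts were summed over members, without normalization between cells beyond CPM. The members, the 24 gene lists and the named genes were chosen with earlier results of these data known. Named genes were the 10 highest and 10 lowest ratios between libraries and the 15 highest against the *Cd209a* gate. Only for the ratios between libraries were genes left out where 1 member held over 50% of the UMIs of the higher library. With 1 library per condition no test was made. Shares have exact Clopper-Pearson intervals, with 3 cells of the total as the limit for a share of 0, sums exact Poisson intervals and ratios exact conditional intervals. A count of 0 was set to 3 UMIs in ratios, which are then bounds. Doublets were not called. A few genes of the lists and of the named genes are not reported here. Thinning drew 2000 UMIs per cell (seed 1), leaving out shallower cells. In simulated counts of 3489 genes for the AngII comparison, 100% of 200 genes changed by 4-fold were recovered and 2.52% of unchanged genes passed 2-fold. The changed genes were drawn from those with at least 200 UMIs. All simulated cells shared 1 pooled profile, without the variation between cells or animals of the real members. The 2.52% therefore reflects counting alone and cannot be set against the shares observed. Promoter windows came from RefSeq and gene positions from GENCODE M21. Versions were Matplotlib 3.10.9, pandas 2.3.3, SciPy 1.17.1, NumPy 2.4.6 and Python 3.11.15.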

Additional observations from a re-analysis of the deposited data

How the results depend on the processing

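No paired analysis was possible because each condition had 1 library. Of 36 named genes recomputed under 14 alternatives, 25 were past 2-fold in the main analysis, and only these were counted. Of their 344 recomputed values, 323 stayed past 2-fold in the same direction and 340 kept their direction. The exceptions were *Cxcl9*, with log2 ratios of AngII to steady state of -4.01 without a limit on C1q UMIs, -1.62 with thinned cells and -0.11 without members holding UMIs of 7 genes of other cell types, and *Hmgb2* at -0.91 without cycling members. *Stmn1*, *Top2a*, *Irf7*, *Cebpb* and *Ccl4* gave no direction with thinned cells, nor did *Top2a* without cycling members. The share of members among AngII cells was 1.43% with at least 3 selection genes and also with *Xcr1* and *Clec9a* both required, 3.26% without a limit on C1q, 4.32% at 1000 or more detected genes and 2.78% with thinned cells. The share of members with *Yfp* became 0% in both libraries with either stricter selection or with at least 2 *Yfp* UMIs, 0% at steady state with thinned cells, 0% on AngII at 1000 or more genes, at 10000 or more UMIs and without members holding the 7 genes, and 6.57% on AngII without a limit on C1q. The share with *Ccr7* or *Fscn1* at steady state was 0% with thinned cells and without members holding the 7 genes.

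The share of AngII members with at least 3 of 18 cell cycle genes, the definition planned at first, was 68.5%, and 11 of 11 at steady state. It was 86.7% with at least 3 selection genes, 83.3% with both receptors required, 90.2% at 1000 or more genes, 97.9% at 10000 or more UMIs and 35.1% with thinned cells, where steady state had 16.7%. The definition with 11 genes, chosen after the data were seen, gave 14.6% on AngII and 0% at steady state, and 27.7% and 0% at 10000 or more UMIs. The alternatives with members of at least 10000 UMIs, without cycling members and without members holding over 50% of the UMIs of 8 genes were also added after the data were seen.

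Counts of genes past 2-fold moved as follows. With thinned cells, 22 genes were higher and 7 lower on AngII than at steady state, 9 and 4 against the *Cd209a* gate at steady state, 21 and 44 there on AngII, 109 and 220 against macrophages at steady state, 246 and 970 on AngII, and 48 and 40 against migratory cells. At a minimum of 20 UMIs, the counts were 884 and 537 between libraries, 291 and 481 against the *Cd209a* gate at steady state, 688 and 904 on AngII, 659 higher than macrophages at steady state, and 1641 and 904 against migratory cells. At 100 UMIs they were 146 and 86 between libraries, 34 and 54, then 197 and 270 against the *Cd209a* gate, 204 and 809 against macrophages at steady state, and 456 and 248 against migratory cells. Without members holding the 7 genes, 175 were higher and 126 lower on AngII, 211 higher than the *Cd209a* gate on AngII and 445 higher than migratory cells. Without cycling members, 193 were higher on AngII. With the mean of per-cell CPM, 543 were higher than the *Cd209a* gate on AngII. With 11 steady-state members, shares at 0 allow up to 27.3%.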

Other observations

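Transcripts of 2 lymphoid genes recurred across members. The immunoglobulin chain *Ighm* had 32 UMIs in the steady-state members and 198 on AngII, which were most of the UMIs of 8 B cell markers. The NK cell receptor gene *Klrk1* gave all 24 UMIs of 9 T and NK cell markers at steady state.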
